A study of Mus musculus with 11 samples.

Results

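The genes described here build or direct motile cilia. They were chosen by name as 53 genes in 10 roles, from the regulators of multiciliated cells to the dynein arms, radial spokes and other parts of the axoneme, and all 53 were found among the 21899 genes of the expression table. RNA-seq of airway tissue was available from 11 libraries of BALB/c male mice, labelled WT. The PBS group (3 libraries) received PBS only. The OVA/LPS/Vehicle group (4 libraries) was sensitised with ovalbumin (OVA) and alum, challenged with OVA through the nose, exposed to nasal lipopolysaccharide (LPS), and given vehicle into the trachea. The OVA/LPS/GGsTop group (4 libraries) was treated likewise but received GGsTop, an inhibitor of γ-glutamyl transferase, in place of vehicle.

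The mice were young adults, and tissue was taken a few days after the last exposure. The labels name the tissue trachea, whereas the methods of the study describe larger airways freed of lung and without the trachea. Vehicle libraries carry the labels 12, 34, 56 and 78, and whether these are pools of mice is not stated. Values are fragments per kilobase of transcript, scaled to sequencing depth (FPKM), and the fragments implied by them came to 14513136 to 18632382 per library.

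Motile cilia cover the multiciliated cells of the airway and move mucus towards the throat. Geminin-family factors start the programme that multiplies basal bodies, and Foxj1 together with RFX factors switches on the genes of the axoneme. The axoneme beats because dynein arms slide its microtubule doublets, with radial spokes, a central pair and the nexin-dynein regulatory complex shaping the stroke.

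Promoters of the genes are shown first because RFX factors, of which Rfx2 and Rfx3 are members here, bind an inverted pair of GTTGCC-like half-sites. RefSeq promoter windows of GRCm38.p6, from 250 bases before to 50 bases after the start of the gene, were available for 44 of the 53 genes. On either strand, 16 spellings of RFX and forkhead motifs were searched. The pair with a spacer of 3 or 4 bases was chosen after the number of matching genes had been seen, so its share is a description picked for being high. The sequences below show 7 of the matches, 5′ to 3′ on the strand of the gene, with the matched pair in capitals.

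Dnah7a (chr1:53706821-53706849, minus strand): gccagtttGTTGCTTAGCAACgaatcgac
Dnah7b (chr1:46066821-46066849, plus strand): gccagtttGTTGCTTAGCAACgaatcgac
Dnai1 (chr4:41569767-41569795, plus strand): gcctgtcgGTTGCTGGGTAACcgcgtcag
Dnai2 (chr11:114727378-114727406, plus strand): cggccaggGTTGCTAGGCAACtggtaaac
Tekt2 (chr4:126325697-126325725, minus strand): agggggcgGTTGCTCGGCAACcagagccg
Cfap44 (chr16:44394764-44394793, plus strand): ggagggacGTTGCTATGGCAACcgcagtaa
Hydin (chr8:110266948-110266977, plus strand): actctgcgGTTGCTGTGGCAACagatggta

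The printed stretches of Dnah7a and Dnah7b, paralogous heavy chains, were the same. The pair GTTNC and GNAAC, 3 or 4 bases apart, lay in the windows of 12 of the 44 genes (27.3%), against 2.22% of all 17491 protein-coding genes with a window. The half-site GTTGCC, which the pair can overlap, lay in 20 of 44 (45.5%), against 14.4% of all. The 10 other spellings of the RFX motif matched between 0 and 8 of the 44 genes. Of the forkhead spellings, TGTTTAC lay in 3 (6.82%, against 3.45% of all), TGTTTGC in 5 (11.4%, against 5.29%) and TGTTGT in 8 (18.2%, against 13% of all). A match of letters is not a bound site.

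Motile cilia genes were mostly higher in the OVA/LPS/Vehicle group than in the PBS group. Of the 53 genes 41 rose, none fell, and 12 did not pass the test (limma on log2(FPKM + 1), adjusted p under 0.05). No gene was lower at an unadjusted p under 0.05 either, in this fit or with voom on the recovered fragments. At that p 43 were higher, and 6944 of all 14004 genes tested by limma had such a p in either direction. Over all 14004 genes tested, 15.9% rose and 22.1% fell. For 42 of the 53 genes every OVA/LPS/Vehicle library lay above every PBS library, which held for 18.7% of all genes, and for none every library lay below (25.4% of all). The median log2 fold change was 0.84 among the motile cilia genes and −0.01 over all genes tested. Of the 12 genes with an RFX pair in the promoter window 10 rose (median 0.80), and of the 32 without it 24 rose (median 0.83). A link between the pair and the rise was not tested.

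**Figure D1:**
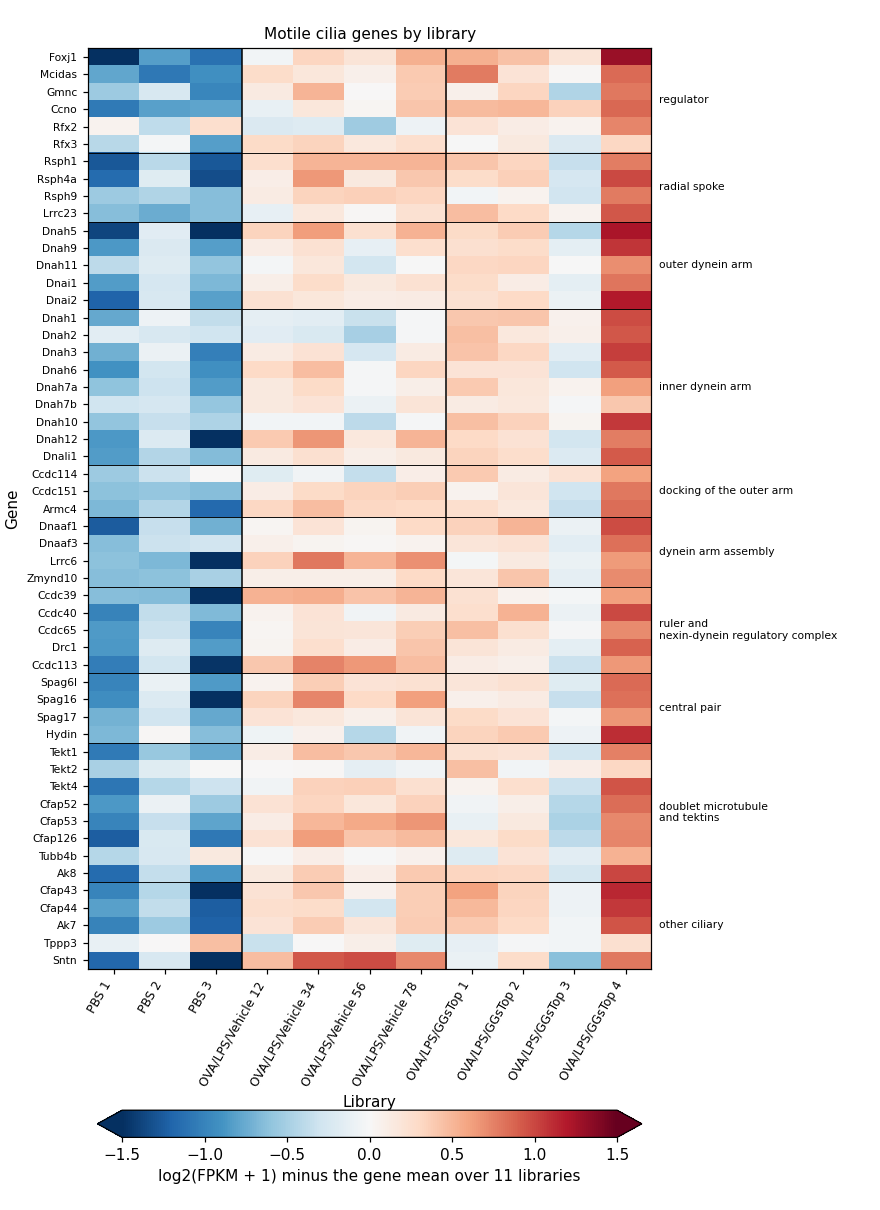
Heat map of the 53 motile cilia genes (rows, grouped by role) in the 11 libraries (columns), coloured by log2(FPKM + 1) minus the gene mean over all libraries, with colours saturating at 1.5. The PBS libraries are mostly blue, and the library OVA/LPS/GGsTop 4 is the highest of all for 47 of the 53 genes.

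Levels of other cell types moved with this difference. The summed FPKM of 6 markers of alveolar type 2 cells, which line the lung's air sacs, was 9725 to 15504 in the PBS group and 4969 to 8336 in the OVA/LPS/Vehicle group, without overlap. Smooth muscle markers (6 genes) summed to 594 to 782 FPKM and 479 to 526 FPKM, also without overlap. Basal cell markers came to 3.77 to 37.7 and 27.5 to 52.4 FPKM, club cell markers to 32957 to 39219 and 37471 to 57487 FPKM, and leukocyte markers to 199 to 280 and 185 to 263 FPKM, all overlapping. By limma 3 of the 6 club cell markers rose, with a median log2 fold change of 2.34 over the list (2.13 after GC correction). The summed FPKM of 10 airway epithelial markers overlapped between the groups, at 392 to 531 and 432 to 561, while 4 of the 10 rose and none fell (median 0.38). Per unit of that epithelial sum, 51 motile cilia genes (without the broadly expressed Tubb4b and Tppp3) came to 0.504 to 0.924 in the PBS group and 1.30 to 1.42 in the OVA/LPS/Vehicle group. With the mean level of the epithelial markers as a covariate 18 genes rose, with 5.96% of all genes, and the median was 0.43. With that of the alveolar type 2 markers as a covariate no motile cilia gene passed limma's test, 9 were higher at an unadjusted p under 0.05, and the median was 0.39. This second covariate left 3 higher genes among all 14004 tested. Both covariates were chosen after seeing the data, and since the alveolar markers separate the groups, the share of alveolar tissue and the treatment cannot be told apart. The part of the smooth muscle difference was not tested. Thyroid markers reached 92.9 to 315 FPKM in OVA/LPS/Vehicle 12, 34 and 56 and at most 1.68 FPKM in all other libraries. The library OVA/LPS/Vehicle 78, without that signal, had a sum of 729 FPKM over the 51 motile cilia genes, and the libraries 12, 34 and 56 had 612, 736 and 651 FPKM. In bulk tissue, more multiciliated cells and more RNA per cell cannot be told apart either.

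**Figure D2:**
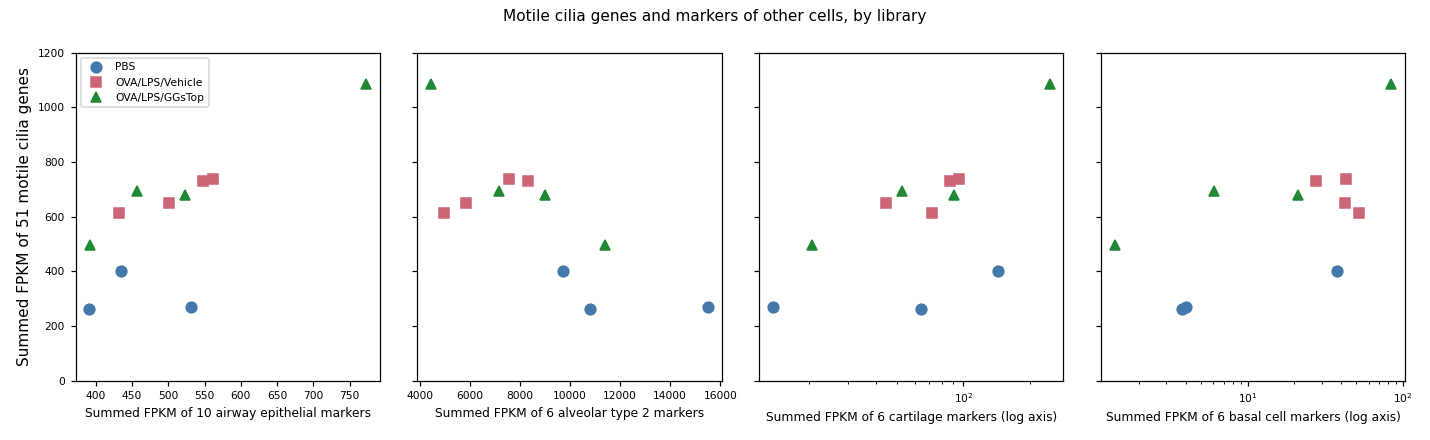
Summed FPKM of 51 motile cilia genes (vertical axis) against the summed FPKM of markers of airway epithelium, alveolar type 2 cells, cartilage and basal cells, with 1 point per library. The PBS libraries lie lowest on the vertical axis and at or above 9725 on the alveolar axis, and OVA/LPS/GGsTop 4 has the highest cartilage and basal cell sums.

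Of the 6 regulators 5 rose, and Rfx2 did not pass the test. Foxj1, the transcription factor that drives motile ciliogenesis, measured 21.2, 35.3 and 28.7 FPKM in the PBS libraries and 61.4, 79.2, 72.6 and 92.5 FPKM in the OVA/LPS/Vehicle libraries. Every OVA/LPS/Vehicle library was above every PBS library, with a log2 fold change of 1.41 (SE 0.25, limma adjusted p = 0.00416).

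Mcidas encodes multicilin, a start factor of the programme. It measured 0.419, 0.163 and 0.294 FPKM in the PBS libraries and 1.95, 1.76, 1.58 and 2.22 FPKM in the OVA/LPS/Vehicle libraries. The groups did not overlap (log2 fold change 1.16, SE 0.20, limma adjusted p = 0.00391). It entered the test only through the groups where it was high. Ccno, a cyclin-like gene needed to multiply centrioles, measured 0.831, 1.16 and 1.2 FPKM against 2.52, 3.27, 2.87 and 4.08 FPKM (log2 fold change 1.01, SE 0.15, limma adjusted p = 0.00348).

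Gmnc, a geminin-like factor that acts before Mcidas, measured 0.590, 0.966 and 0.178 FPKM in the PBS libraries and 1.54, 2.30, 1.32 and 2.02 FPKM in the OVA/LPS/Vehicle libraries. Its log2 fold change of 0.84 (limma adjusted p = 0.0293) was 0.25 (adjusted p = 0.471) after correction for GC content, so that the call ended. Rfx3 rose by 0.68 (limma adjusted p = 0.0135), from 2.16, 3.13 and 1.39 FPKM to 4.15, 4.32, 3.70 and 4.04 FPKM, and by 0.17 (adjusted p = 0.327) after that correction. Rfx2 measured 4.75, 3.26 and 5.64 FPKM against 3.78, 3.87, 2.85 and 4.27 FPKM, and the groups overlapped (−0.23, limma adjusted p = 0.36).

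**Figure D3:**
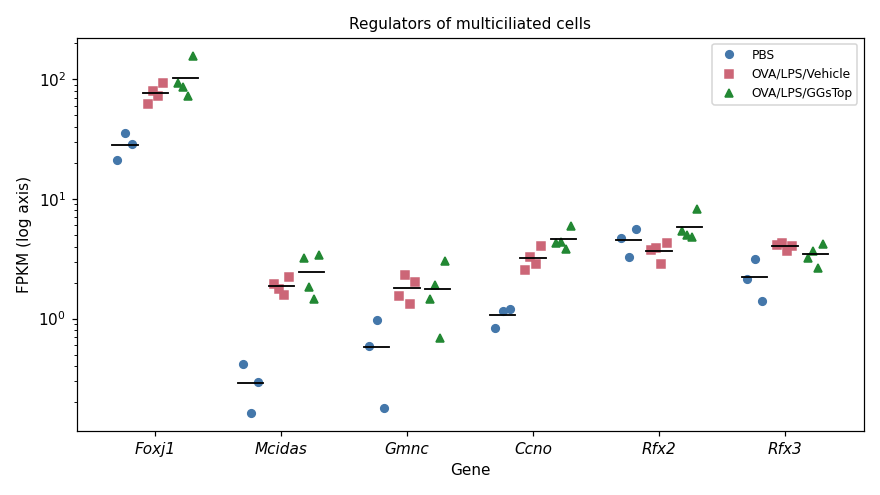
FPKM of the 6 regulators (log axis) in each library, with circles for PBS, squares for OVA/LPS/Vehicle, triangles for OVA/LPS/GGsTop and bars for group means. The PBS libraries lie below all others for Foxj1, Mcidas and Ccno, and PBS and OVA/LPS/Vehicle overlap for Rfx2.

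Radial spokes, which carry signals between the central pair and the dyneins, rose in all 4 of their genes. Rsph1 measured 15.6, 29.2 and 15.6 FPKM in the PBS libraries and 46.7, 55.9, 55.8 and 56 FPKM in the OVA/LPS/Vehicle libraries (log2 fold change 1.42, SE 0.26, limma adjusted p = 0.00443). Lrrc23 had the highest mean of the spoke genes, with 29.3, 27.1 and 29.2 FPKM against 42.3, 51.5, 46.7 and 54.4 FPKM (log2 fold change 0.74, limma adjusted p = 0.00988).

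Outer dynein arms provide most of the power of the stroke. Among their 5 genes 4 rose, and Dnah11 (0.35, limma adjusted p = 0.116) did not pass. Dnah5, a heavy chain, measured 3.44, 9.23 and 2.69 FPKM in the PBS libraries and 13.6, 16.9, 12.7 and 15.5 FPKM in the OVA/LPS/Vehicle libraries (log2 fold change 1.5, SE 0.38, limma adjusted p = 0.0126). Library PBS 2 was the highest PBS library here, as it was for 39 of the 53 genes.

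Inner dynein arms shape the waveform, and 5 of their 9 genes rose. Dnah7a measured 1.54, 2.12 and 1.16 FPKM against 3.28, 3.71, 2.82 and 3.10 FPKM (0.71, limma adjusted p = 0.00832). Reads of Dnah7a and Dnah7b may be shared, since 20% and 23.5% of the 100-base windows of their transcripts occur in other genes. Dnali1, a light chain with the highest mean of this role, measured 14.9, 19.9 and 17.1 FPKM against 30.2, 32.5, 29.2 and 30.4 FPKM (0.80, limma adjusted p = 0.0137). The 4 that did not pass were the heavy chains Dnah1 (0.24), Dnah2 (0.01), Dnah3 (0.67) and Dnah10 (0.34).

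Docking proteins fix the outer arm to the doublet. Armc4 rose by 1.11 (limma adjusted p = 0.00736), from 1.94, 2.48 and 1.10 FPKM to 4.82, 5.47, 4.85 and 4.79 FPKM. Ccdc151 rose by 0.88 (limma adjusted p = 0.00828), from 3.78, 3.90 and 3.71 FPKM to 6.88, 7.93, 8.18 and 8.43 FPKM, and Ccdc114 did not pass (0.16). Of the 4 cytoplasmic assembly factors of dynein arms 3 rose. Lrrc6 measured 3.70, 3.53 and 1.24 FPKM against 8.20, 11.4, 9.30 and 10.6 FPKM (log2 fold change 1.58, SE 0.26, limma adjusted p = 0.00365). Zmynd10 measured 4.46, 4.54 and 5.09 FPKM against 8.06, 8.02, 8.01 and 9.47 FPKM (0.72, limma adjusted p = 0.00916).

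The ruler proteins, which set the repeat along the doublet, and the nexin-dynein regulatory complex rose in all 5 genes. Ccdc39, a ruler protein, measured 4.57, 4.52 and 1.89 FPKM against 11.5, 11.6, 10.7 and 11.3 FPKM (log2 fold change 1.46, SE 0.22, limma adjusted p = 0.00348). Of its 100-base windows 24.8% also occur in transcripts of Ttc14, so its counts are uncertain. Ccdc113 measured 8.56, 15.2 and 6.08 FPKM against 25.0, 32.0, 29.9 and 26.0 FPKM (1.5, limma adjusted p = 0.00427).

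Of 4 central pair genes 3 rose, and Hydin did not pass (0.31, limma adjusted p = 0.344). Spag17 measured 1.32, 2.12 and 1.23 FPKM against 3.36, 3.23, 3.01 and 3.36 FPKM (0.74, limma adjusted p = 0.00762). Spag6l measured 3.44, 7.27 and 3.92 FPKM against 8.19, 10.4, 9.16 and 9.40 FPKM (0.86, limma adjusted p = 0.0197).

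Of 8 doublet microtubule genes and tektins 6 rose. Tekt1, a filament protein inside the doublet, measured 8.43, 12.2 and 10.7 FPKM against 20.2, 26.2, 25.1 and 26.9 FPKM (1.16, limma adjusted p = 0.00427). The tubulin gene Tubb4b, expressed in many cells, measured 135, 154 and 201 FPKM against 180, 193, 180 and 190 FPKM, and the groups overlapped (0.21, limma adjusted p = 0.383).

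Among the remaining ciliary genes 4 of 5 rose. Sntn, a protein of the ciliary tip, had the highest log2 fold change of the 53 genes on the uncorrected log2(FPKM + 1) scale, at 1.91 (SE 0.38, limma adjusted p = 0.00592). It was 1.41 (adjusted p = 0.0178) after GC correction, and its ratio of mean FPKM of 3.60 was below the 6.43 of Mcidas. It measured 8.41, 17.0 and 4.33 FPKM in the PBS libraries and 28.3, 39.5, 40.8 and 34.1 FPKM in the OVA/LPS/Vehicle libraries. Ak7, an adenylate kinase, measured 9.42, 13.2 and 8.01 FPKM against 23.1, 26.1, 22.6 and 26.2 FPKM (1.21, limma adjusted p = 0.00402). Tppp3, a tubulin-binding protein, measured 229, 248 and 339 FPKM against 197, 249, 263 and 219 FPKM and overlapped (−0.22, limma adjusted p = 0.307).

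The number of genes that rose was 28 to 42 in the fits that each lacked 1 of the 7 libraries compared, and 41 to 43 in those that lacked 1 OVA/LPS/GGsTop library. Over all genes the fold change varied with GC content, the share of G and C bases in the longest transcript, so a spline of it was removed in each library. With the library's mean deviation removed too, 38 motile cilia genes rose (7.87% of all genes) and none fell (12.9% of all). With that mean kept, an alternative chosen after seeing the data, 39 rose (8.11% of all) and none fell (13.3% of all).

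GGsTop in place of vehicle went with few differences that passed the test. By limma 1 of the 53 genes was higher and none was lower. At an unadjusted p under 0.05, 9 were higher and 0 lower, while 4319 of all 14004 genes tested had such a p in either direction. The share of the 53 genes at that p was thus below that of all genes. With voom on the recovered fragments 1 gene was higher and 0 lower, with 9 higher and 1 lower at an unadjusted p under 0.05. Over all genes tested 6.9% were higher and 1.81% lower. Every OVA/LPS/GGsTop library lay above every OVA/LPS/Vehicle library for 5 genes (17.3% of all genes) and below for none (12.4% of all). The median log2 fold change was 0.11, against 0.03 over all genes. The outermost ends of the 95% intervals were −1.47, among the remaining ciliary genes, and 1.08, among the central pair genes. Intervals of the doublet microtubule genes and tektins stayed within −0.91 to 0.61. The changes not excluded at this number of libraries thus differed from gene to gene.

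Dnah2, an inner arm heavy chain, was the gene that passed. It measured 2.27, 2.13, 1.61 and 2.63 FPKM in the OVA/LPS/Vehicle libraries and 4.03, 3.08, 2.87 and 6.04 FPKM in the OVA/LPS/GGsTop libraries. The groups did not overlap (log2 fold change 0.63, SE 0.18, limma adjusted p = 0.0486). The call was lost whenever any of these 8 libraries was left out and with either GC correction (0.48 and 0.50, adjusted p = 0.151 and 0.134).

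The inner arm genes Dnah1 (0.62, limma adjusted p = 0.0624) and Dnah10 (0.60, limma adjusted p = 0.0621) did not pass, nor did Rfx2 (0.53, limma adjusted p = 0.0788) or the docking gene Ccdc114 (0.46, limma adjusted p = 0.0741). For each of them the groups did not overlap. Foxj1 measured 92.4, 86.5, 72.9 and 157 FPKM in the OVA/LPS/GGsTop libraries and overlapped with the OVA/LPS/Vehicle group (0.37, limma adjusted p = 0.295). Sntn had the lowest value, with 18.8, 24.8, 12.8 and 35.7 FPKM in the OVA/LPS/GGsTop libraries (−0.69, limma adjusted p = 0.209).

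In the OVA/LPS/GGsTop libraries 1 to 4, the regulator Gmnc measured 1.45, 1.90, 0.696 and 3.01 FPKM (−0.07 against OVA/LPS/Vehicle, limma adjusted p = 0.87). Rfx3 measured 3.22, 3.68, 2.64 and 4.22 FPKM (−0.20, limma adjusted p = 0.424), and Rfx2 5.42, 5.0, 4.79 and 8.23 FPKM. For Rfx2 alone of these regulators every OVA/LPS/GGsTop library was above every OVA/LPS/Vehicle library.

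Among the spokes and dyneins, Rsph1 measured 52.3, 49.2, 30.6 and 67.4 FPKM, and Lrrc23 64.2, 57.1, 47.8 and 88.8 FPKM (0.37, limma adjusted p = 0.153). Dnah5 measured 13, 14.1, 7.58 and 25.8 FPKM, and Dnali1 34.8, 33.0, 23.7 and 52.6 FPKM. In these 4 genes OVA/LPS/GGsTop 3 was the lowest of its group and OVA/LPS/GGsTop 4 the highest. Dnah11 measured 1.73, 2.14 and 1.37 FPKM in the PBS, 2.5, 3.01, 1.95 and 2.56 FPKM in the OVA/LPS/Vehicle and 3.45, 3.46, 2.57 and 4.81 FPKM in the OVA/LPS/GGsTop libraries (0.37, limma adjusted p = 0.136). Dnah7a measured 4.08, 3.35, 3.01 and 4.90 FPKM, and Dnah2 measured 2.30, 2.11 and 1.98 FPKM in the PBS libraries. Both overlapped with a neighbouring group, Dnah7a with OVA/LPS/Vehicle and Dnah2, in OVA/LPS/Vehicle, with PBS.

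Among docking and assembly genes, Ccdc114 measured 2.25, 2.79 and 3.76 FPKM in the PBS, 3.17, 3.54, 2.67 and 4.05 FPKM in the OVA/LPS/Vehicle and 5.18, 4.14, 4.5 and 6.20 FPKM in the OVA/LPS/GGsTop libraries. Ccdc151 measured 6.58, 7.32, 4.97 and 11.6 FPKM with GGsTop, and Armc4 4.59, 4.24, 2.71 and 7.42 FPKM. Both overlapped with the OVA/LPS/Vehicle group. Lrrc6 measured 6.05, 6.94, 5.75 and 10.2 FPKM (−0.42, limma adjusted p = 0.244), and Zmynd10 8.61, 10.4, 6.76 and 12.9 FPKM. Ccdc39 measured 9.16, 8.01, 7.50 and 12.3 FPKM, and Ccdc113 20.3, 19.6, 14.7 and 29.9 FPKM (−0.44, limma adjusted p = 0.248). None of these 4 was separated from the OVA/LPS/Vehicle group.

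In the central pair, Hydin measured 2.0, 3.83 and 2.08 FPKM in the PBS, 3.57, 3.99, 2.56 and 3.60 FPKM in the OVA/LPS/Vehicle and 5.04, 5.28, 3.54 and 9.30 FPKM in the OVA/LPS/GGsTop libraries (0.56, limma adjusted p = 0.136). With GGsTop, Spag6l measured 9.02, 9.36, 6.78 and 14.9 FPKM, and Spag17 3.63, 3.38, 2.73 and 4.98 FPKM. All 3 overlapped with the OVA/LPS/Vehicle group. The tektin gene Tekt2 measured 1.92, 2.61 and 3.08 FPKM in the PBS, 3.12, 3.13, 2.74 and 2.96 FPKM in the OVA/LPS/Vehicle and 4.61, 2.97, 3.37 and 4.09 FPKM in the OVA/LPS/GGsTop libraries (0.24, limma adjusted p = 0.231). With GGsTop, Tekt1 measured 22.1, 21.8, 15.2 and 32.2 FPKM, Tubb4b 159, 209, 162 and 260 FPKM, Ak7 26.3, 24.7, 19.2 and 39.0 FPKM and Tppp3 227, 245, 241 and 294 FPKM, all overlapping with the OVA/LPS/Vehicle group.

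**Figure D4:**
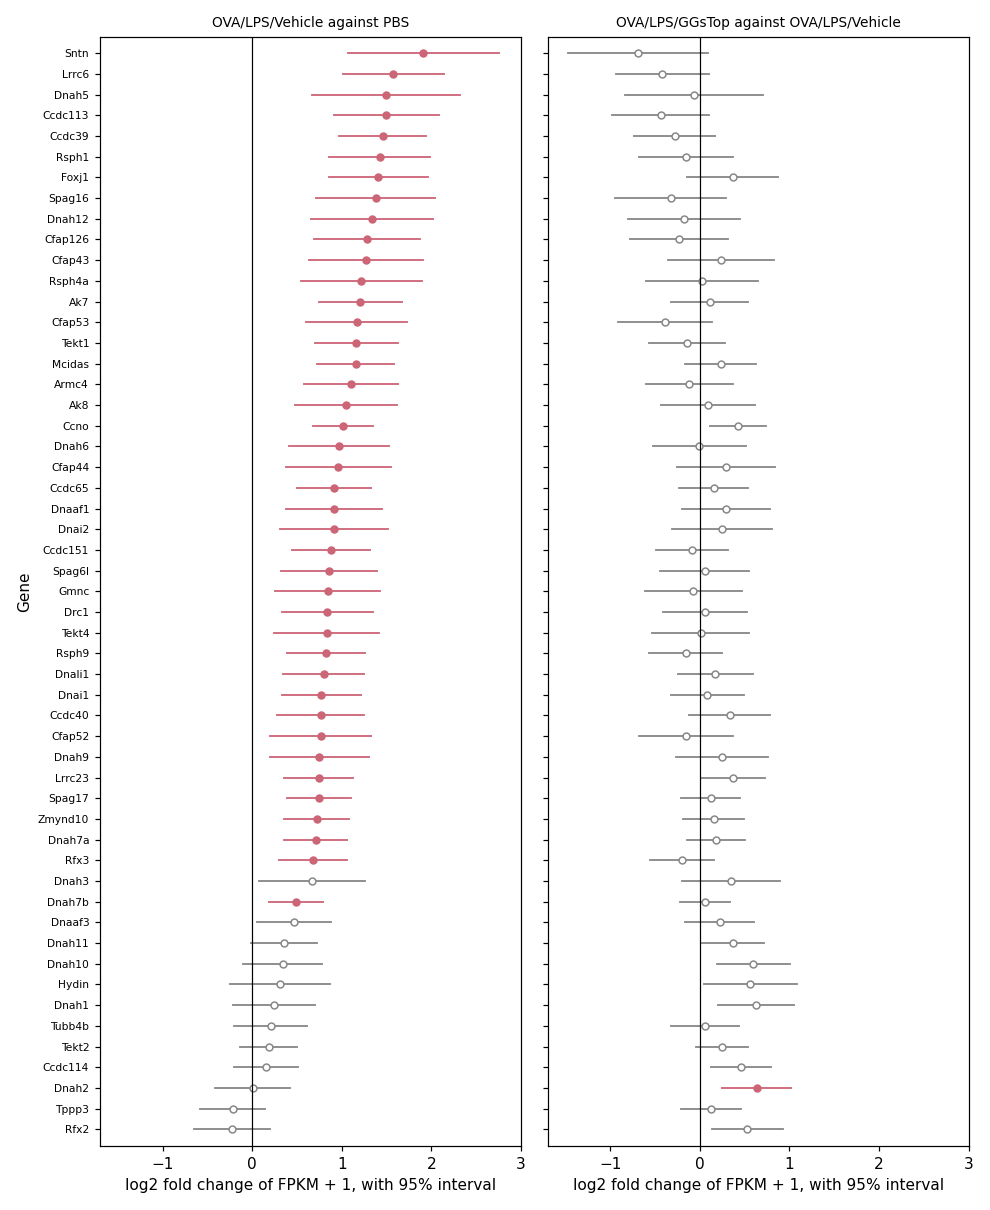
Log2 fold change of FPKM + 1 with its 95% interval for each of the 53 genes, for OVA/LPS/Vehicle against PBS (left) and OVA/LPS/GGsTop against OVA/LPS/Vehicle (right). Filled red points passed the test, 41 on the left and 1 on the right, and open grey points did not.

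Single OVA/LPS/GGsTop libraries stood apart. OVA/LPS/GGsTop 4 was the highest of its group for 52 of the 53 genes, and OVA/LPS/GGsTop 3 the lowest for 49. OVA/LPS/GGsTop 4 also had the highest sums of cartilage markers (246 FPKM) and basal cell markers (84.1 FPKM) of all libraries, and OVA/LPS/GGsTop 3 the lowest sum of basal cell markers (1.40 FPKM). The airway epithelial markers of OVA/LPS/GGsTop 4 summed to 773 FPKM, against at most 561 FPKM in every other library. Per unit of that sum its 51 motile cilia genes came to 1.41, where the other OVA/LPS libraries lay between 1.26 and 1.52. The smooth muscle markers of OVA/LPS/GGsTop 4 summed to 1148 FPKM and its alveolar type 2 markers to 4463 FPKM, the lowest of all, against 11382 FPKM in OVA/LPS/GGsTop 3. The cartilage genes Col2a1, Acan and Matn1 were at 0 in at least 1 of the 11 libraries. The part of these tissues in the result was not tested. Without OVA/LPS/GGsTop 4 the median log2 fold change was −0.03.

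The slope of expression on GC content also differed here: per 10 points of GC it was −0.261 to −0.19 (log2) with vehicle and 0.0464 to 0.108 with GGsTop. In the PBS libraries it was 0.0611, 0.0484 and 0.533, so that PBS 3 stood apart. Over the 53 genes, which share these libraries, the Spearman correlation of GC content with the log2 fold change was 0.47 on the deposited values and −0.19 after correction. No motile cilia gene passed limma's test with either GC correction, where 0.243% and 1.8% of all genes were higher and 0.157% and 0.436% lower. At an unadjusted p under 0.05, 8 motile cilia genes were higher in each. No count over all genes stands beside these 8, so they are not read as a result about the motile cilia genes.

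**Figure D5:**
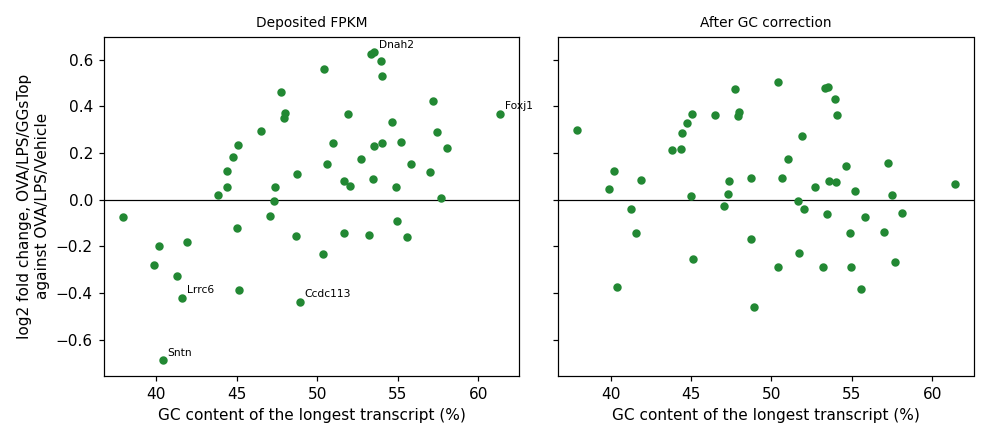
Log2 fold change with GGsTop relative to vehicle, plotted against the GC content of the longest transcript, for the 53 genes, on the deposited FPKM (left) and after removal of a spline of GC content and the library mean (right). Values rise with GC content on the left, with a Spearman correlation of 0.47, and do not on the right.

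Against the PBS group, 23 of the 53 genes were higher in the OVA/LPS/GGsTop group and none was lower, with 2.06% of all genes higher and 0.821% lower. At an unadjusted p under 0.05, 50 were higher and 0 lower in limma, and 49 and 0 with voom on the recovered fragments. In limma, 2873 of all 14004 genes tested had such a p in either direction. Every OVA/LPS/GGsTop library lay above every PBS library for 33 genes (7.22% of all) and below for none (7.54% of all). After either GC correction 33 and 30 genes were higher (2.77% and 3.01% of all genes) and none lower (1.49% and 1.34% of all). The median log2 fold change was 0.97, against 0.01 over all genes. This comparison shares the PBS libraries with the first and the OVA/LPS/GGsTop libraries with the second. Ccno (1.43, SE 0.15, limma adjusted p = 0.0016) had the smallest p, with 4.31, 4.37, 3.85 and 5.90 FPKM in the OVA/LPS/GGsTop libraries. Foxj1 rose by 1.78 (limma adjusted p = 0.00965) and Mcidas, with 3.19, 1.83, 1.47 and 3.41 FPKM, by 1.39 (limma adjusted p = 0.00965).

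The count of 23 depended on the libraries and the fit. It was 2 without PBS 1, 42 without PBS 2, 3 without PBS 3, 3 without OVA/LPS/GGsTop 1, 8 without OVA/LPS/GGsTop 2, 46 without OVA/LPS/GGsTop 3 and 15 without OVA/LPS/GGsTop 4 or without any 1 of the OVA/LPS/Vehicle libraries. The share of all genes that were higher moved with it, at 0.15% without PBS 1, 6.82% without PBS 2, 0.278% without PBS 3, 0.193% without OVA/LPS/GGsTop 1, 0.807% without OVA/LPS/GGsTop 2, 3.92% without OVA/LPS/GGsTop 3 and 1.11% without OVA/LPS/GGsTop 4. The median log2 fold change of the 53 genes was 0.77 to 1.1 in the fits that each lacked 1 of the 7 libraries compared. With the replicate number as a block, 7 genes rose, and 23 or 26 with the block and either GC correction. This block drops OVA/LPS/GGsTop 4 and all OVA/LPS/Vehicle libraries, and a pairing by number was not established. A fit of the PBS and OVA/LPS/GGsTop groups alone gave 1 gene. The epithelial covariate left 7 genes and the alveolar type 2 covariate 1. For the fits with a block, with these groups alone or with a covariate, the share of all genes is not given. Their counts are therefore not read as a loss particular to the motile cilia genes.

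Other cilium genes were counted on further lists. Of 78 other motile cilium genes 58 rose and 1 fell in the OVA/LPS/Vehicle group against the PBS group, and of 29 genes of intraflagellar transport, the traffic that builds cilia, 12 rose and none fell. Of 25 other multiciliogenesis genes 15 rose and 2 fell. Over all genes tested 15.9% rose and 22.1% fell. After GC correction 55 genes were higher and 1 lower on the first list, with 7.87% of all genes higher and 12.9% lower. The counts were 5 and 1 for intraflagellar transport (median log2 fold change 0.19) and 11 and 0 for multiciliogenesis. Against the OVA/LPS/Vehicle group, the OVA/LPS/GGsTop group had 6 higher genes on the first of these lists, none on the second, and 1 lower gene on the third, with 6.9% of all genes higher and 1.81% lower. After GC correction none of these calls was left, with 0.243% of all genes higher and 0.157% lower.

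That lower gene was Myb, a transcription factor that acts early in multiciliogenesis and also in blood cell precursors. It measured 0.788, 1.13 and 1.06 FPKM in the PBS libraries, 6.05, 4.39, 4.32 and 4.49 FPKM in the OVA/LPS/Vehicle libraries and 2.92, 2.47, 2.66 and 3.62 FPKM in the OVA/LPS/GGsTop libraries. The groups did not overlap. Myb rose by 1.54 (SE 0.14, limma adjusted p = 0.0005) with OVA/LPS/Vehicle against PBS, and was lower with GGsTop than with vehicle (−0.57, SE 0.13, limma adjusted p = 0.0286), a call lost after GC correction (−0.52, adjusted p = 0.0734).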

How the data were processed

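RNA-seq libraries of poly(A)-selected RNA were made from airway tissue in 11 samples (3 given PBS, 4 vehicle and 4 GGsTop after OVA/LPS). The authors deposited FPKM values for 21899 genes. The submitters' processing notes name cutadapt 1.15, HISAT2 2.0.5, HTSeq 0.9.1 and mm39; strand setting and annotation are not given in the sources used here. With GENCODE M21 exon lengths, FPKM gave whole fragments in every library for 97.8% of genes (tolerance 0.01 fragments), and totals were 14513136 to 18632382 per library.

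The values were tested as log2(FPKM + 1) by limma 3.58.1 under R 4.3.3. A single fit held all 11 libraries, and its empirical Bayes step followed the mean-variance trend. The minimum for entry was 0.5 FPKM on average over the libraries (14004 genes, all 53 motile cilia genes among them), and p-values were adjusted over all of them by Benjamini-Hochberg, with calls at 0.05. Fold changes on this scale understate those of low genes. Nothing says that libraries of a group came from separate mice, so p-values measure the spread between these samples. The script was tested on simulated data. Python 3.11.15, pandas 2.3.3 and matplotlib 3.10.9 made tables and figures.

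The motile cilia genes and all lists were chosen with earlier results of these data known. Values per library are given for the 6 regulators and, in each other role, for the gene with the highest mean and those with the smallest p in the first and second comparison; other genes are named for range ends, calls or sequence. Dnai1 and Dnai2 were matched through RefSeq synonyms.

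Same-numbered PBS and OVA/LPS/GGsTop libraries deviated together (Pearson r over genes 0.367, 0.427 and 0.428), and the fits with a replicate block used these numbers. PBS 1 and PBS 2 correlated best with OVA/LPS/GGsTop 3 and 4, not with their own number. The sample labels state no pairing, so pairing by number was not established. Alternatives are named in the closing section. Voom on recovered fragments, leaving out PBS 3 with OVA/LPS/GGsTop 4, both marker covariates and the GC correction that keeps the library mean were added after seeing the data.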

Additional observations from a re-analysis of the deposited data

Results flagged for a closer look

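Among 106 tests of a single library against the others of its group (53 genes in each group of 4 libraries, Dixon's test), 4 values stood apart, and chance sets apart about 1 in 20 groups. Rsph1 was 46.7 FPKM in OVA/LPS/Vehicle 12, against 55.8 to 56 FPKM in the others. Dnah10 was 3.24 FPKM in OVA/LPS/Vehicle 56, against 4.38 to 4.47 FPKM. Armc4 was 5.47 FPKM in OVA/LPS/Vehicle 34, against 4.79 to 4.85 FPKM. Zmynd10 was 9.47 FPKM in OVA/LPS/Vehicle 78, against 8.01 to 8.06 FPKM.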

How the results depend on the processing

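For OVA/LPS/Vehicle against PBS, 38 to 50 motile cilia genes rose under the other settings that kept all libraries and had no covariate, 28 to 42 with each of the 7 libraries compared left out and 41 to 43 with each OVA/LPS/GGsTop library left out, with medians, over the 7, from 0.72 to 1.02. The share of all genes that rose was 7.87% to 24.6% under the first settings and 8.39% to 21.7% with each of the 7 left out. The epithelial covariate gave 18 genes (median 0.43) and the alveolar type 2 covariate 0 (median 0.39), with 5.96% and 0.0214% of all genes. With GGsTop against vehicle, 0 genes were higher without a minimum and at the same median (3.9% and 2.46% of all genes). The same count was found after either GC correction, with the alveolar type 2 covariate and with any of the 8 libraries left out. With all libraries kept, 8 to 20 motile cilia genes had an unadjusted p under 0.05 in these fits (limma). No count over all genes stands beside them, so they are not read as a result about the motile cilia genes. There were 3 higher genes without PBS 2, 5 without PBS 3, 4 in a fit of these groups alone and 11 with the epithelial covariate. The share of all genes is not given for these fits, so their counts are not read as a result about the motile cilia genes. At the same FPKM total there were 6, below the share of all genes (14.5%). Library weights gave 5 higher and 6 lower genes, with 23.1% of all genes higher. Leaving out PBS 3 and OVA/LPS/GGsTop 4 together gave 1 higher and 5 lower genes. For the lower genes of both fits the share of all genes is not given, nor for the higher gene of the latter. These counts are thus not read as a fall of the motile cilia genes. The median was −0.03 to 0.23 with each library left out. For OVA/LPS/GGsTop against PBS, 11 genes rose without a minimum and 50 with library weights. A fit of these groups alone gave 1 gene and the replicate block 7. With each library left out 2 to 46 rose (medians 0.77 to 1.1), and 4 without PBS 3 and OVA/LPS/GGsTop 4 (median 0.65). The epithelial covariate gave 7 genes (median 0.62) and the alveolar type 2 covariate 1 (median 0.67). Beyond the shares given earlier for single libraries left out, no share of all genes stands beside these counts. They are therefore not read as a result about the motile cilia genes. What caused these shifts between settings was not tested. With so few libraries per group, a gene that did not pass the test is not shown to be unchanged.

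Log2 fold changes of named genes turned in sign 14, 43 and 3 times in the 3 comparisons. In the first (OVA/LPS/Vehicle against PBS), Dnah2 was −0.11 at the same FPKM total. Dnah2 was −0.013 with library weights. Dnah2 was −0.030 without PBS 3 and OVA/LPS/GGsTop 4. Dnah2 was −0.28, Ccdc114 −0.035, Hydin −0.19 and Tubb4b −0.10 with the epithelial covariate. Dnah2 was −0.32 and Hydin −0.25 with the alveolar covariate. Tppp3 was 0.11 after GC correction. Tppp3 was 0.13 after GC correction that kept the library mean. With 1 library left out, the ranges were Dnah2 −0.065 to 0.094. In the second (GGsTop against Vehicle), Gmnc was 0.30, Rfx3 0.12, Armc4 0.017, Zmynd10 −0.075, Ccdc39 0.047, Tubb4b −0.14 and Tppp3 −0.14 after GC correction. Gmnc was 0.32, Rfx3 0.14, Armc4 0.037, Zmynd10 −0.055, Ccdc39 0.067, Tubb4b −0.12 and Tppp3 −0.12 after GC correction that kept the library mean. Gmnc was 0.0074 and Dnah5 0.046 with the epithelial covariate. Gmnc was 0.16, Rsph1 0.13, Dnah5 0.37, Ccdc151 0.096, Armc4 0.20 and Tekt1 0.027 with the alveolar covariate. Dnah5 was 0.022 at the same FPKM total. Dnali1 was −0.023, Spag6l −0.14, Spag17 −0.0027, Tubb4b −0.085 and Ak7 −0.071 without PBS 3 and OVA/LPS/GGsTop 4. Spag6l was −0.079, Tubb4b −0.071 and Ak7 −0.0078 with library weights. With 1 library left out, the ranges were Gmnc −0.27 to 0.14, Rsph1 −0.31 to 0.060, Dnah5 −0.35 to 0.20, Dnali1 −0.023 to 0.35, Ccdc151 −0.29 to 0.070, Armc4 −0.32 to 0.069, Spag6l −0.14 to 0.20, Spag17 −0.0027 to 0.23, Tekt1 −0.32 to 0.028, Tubb4b −0.085 to 0.15 and Ak7 −0.071 to 0.26. In the third (GGsTop against PBS), Tppp3 was 0.041 with library weights. Tppp3 was 0.012 after GC correction that kept the library mean. With 1 library left out, the ranges were Tppp3 −0.21 to 0.072.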
